A study of Mus musculus with 23 samples.

Results

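The 40 genes described here form a mitosis and G2/M module: cyclins and Cdk1, the kinases, checkpoint proteins and kinetochore proteins of the mitotic spindle, and the proteins that complete cell division. They were taken by symbol, and all 40 were found among the 24063 gene symbols listed for each library. The rule goes by gene name and uses no measured value. Total RNA was sequenced from 23 libraries of mouse cells labelled CD138+B220-, the surface phenotype of plasma cells. The labels call the cells of all 23 libraries MM (myeloma) cells, Control included, so how the Control cells were selected rests on a label shared with the tumours. Control is 3 bone marrow libraries of mice with IgG1-Cre, a Cre recombinase expressed in B cells that switch to IgG1. Each of 5 myeloma donor lines, grown in transplant recipients, gave 4 of the remaining 20 libraries. VQ-D5, VQ-D2, VQ-D1 and VQ-D4, listed here from high to low module level, carry Vκ*MYC, NrasLSL Q61R/+ and IgG1-Cre together, and t-VK12653 carries Vκ*MYC alone. Vκ*MYC is a MYC transgene under kappa light chain elements that is switched on in germinal centre B cells, and NrasLSL Q61R is an Nras allele with an activating change whose stop cassette is removed by Cre.

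Of VQ-D1, replicates 1 and 3 were bone marrow and 2 and 4 spleen. Of VQ-D2, replicates 1 and 2 were spleen and 3 and 4 lymph node. VQ-D4 replicates 1 to 4 were bone marrow, liver, spleen and lymph node. VQ-D5 replicates 1 and 2 were bone marrow and 3 and 4 lymph node, and t-VK12653 replicates 1 and 3 were bone marrow and 2 and 4 spleen. The 4 libraries of a line share 1 donor, so n = 4 counts libraries, and p-values between lines measure the spread between libraries of a donor, not between donors. A number in the names of the deposited tables, taken here as the recipient, differs within each line and is shared by replicates 1 and 2 and by 3 and 4 in VQ-D1 and t-VK12653, by 1 and 3 and by 2 and 4 in VQ-D2 and VQ-D5, and by 1, 3 and 4 in VQ-D4. Values are CPM, the authors' gene counts divided by library size, with sizes scaled between libraries, and are listed in the order of replicate number.

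Cells enter mitosis when Cdk1 bound to cyclin B is released from inhibitory phosphates by CDC25 phosphatases, and they leave it when the anaphase-promoting complex, activated by Cdc20, has securin and cyclin B destroyed. Most of these genes are transcribed late in the cell cycle by the MuvB complex together with B-Myb (Mybl2) and FoxM1, which act at a promoter element called the cell cycle genes homology region (CHR). In resting cells MuvB joins a retinoblastoma-related protein in the DREAM complex and represses the same genes. Normal plasma cells are mostly non-dividing, and their dividing precursors, the plasmablasts, express these genes.

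Promoters are shown first because the members were compared as a set whose transcription is timed together. RefSeq windows of 300 bases (250 before to 50 after each annotated start, GRCm38.p6) were matched by symbol for 34 of the 40 members. Bases of annotated exons were trimmed, so the stretches printed end at or before the start. Lower-case letters are the sense strand of the gene, 5′ to 3′. Capitals mark a CHR match (TTTGAA or TTCGAA) or a CCAAT match, the box bound by NF-Y, on either strand, so that TTCAAA and ATTGG are the reverse complements. The first 6 members hold both kinds of match, and the last 2 hold neither in the whole window.
Cdc20: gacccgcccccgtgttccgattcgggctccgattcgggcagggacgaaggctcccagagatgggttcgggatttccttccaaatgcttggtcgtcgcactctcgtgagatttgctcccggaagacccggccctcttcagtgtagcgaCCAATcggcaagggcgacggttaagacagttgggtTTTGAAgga
Cdk1: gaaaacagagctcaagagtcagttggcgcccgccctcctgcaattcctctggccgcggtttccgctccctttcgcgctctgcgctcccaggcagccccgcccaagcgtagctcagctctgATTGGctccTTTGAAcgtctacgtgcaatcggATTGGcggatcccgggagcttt
Ccnb2: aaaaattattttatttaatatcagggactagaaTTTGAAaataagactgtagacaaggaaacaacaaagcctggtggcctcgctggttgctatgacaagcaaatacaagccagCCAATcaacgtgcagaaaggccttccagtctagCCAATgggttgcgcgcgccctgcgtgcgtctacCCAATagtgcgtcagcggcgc
Top2a: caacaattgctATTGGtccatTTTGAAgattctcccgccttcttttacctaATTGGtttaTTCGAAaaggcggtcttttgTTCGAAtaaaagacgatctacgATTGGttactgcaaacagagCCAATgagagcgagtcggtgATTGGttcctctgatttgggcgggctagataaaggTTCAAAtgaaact
Mki67: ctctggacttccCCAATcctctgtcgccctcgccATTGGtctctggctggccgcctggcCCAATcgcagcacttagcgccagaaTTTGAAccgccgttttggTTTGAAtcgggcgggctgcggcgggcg
Kif11: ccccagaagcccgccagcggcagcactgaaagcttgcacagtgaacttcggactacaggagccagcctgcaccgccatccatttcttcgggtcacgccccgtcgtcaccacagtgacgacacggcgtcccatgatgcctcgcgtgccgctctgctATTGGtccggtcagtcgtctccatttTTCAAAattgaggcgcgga
Birc5: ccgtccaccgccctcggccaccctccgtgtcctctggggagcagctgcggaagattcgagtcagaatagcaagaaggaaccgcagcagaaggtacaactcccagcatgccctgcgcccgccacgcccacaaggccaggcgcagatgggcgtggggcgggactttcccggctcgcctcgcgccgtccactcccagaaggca
Mad2l1: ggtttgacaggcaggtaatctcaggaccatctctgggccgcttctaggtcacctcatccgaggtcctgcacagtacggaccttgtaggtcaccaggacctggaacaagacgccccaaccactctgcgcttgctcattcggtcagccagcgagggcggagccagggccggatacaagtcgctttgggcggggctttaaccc
In GRCm38.p6 these stretches lie at chr4:118437353-118437543 (minus strand) for Cdc20, chr10:69352939-69353112 (minus) for Cdk1, chr9:70421555-70421754 (minus) for Ccnb2 and chr11:99024200-99024389 (minus) for Top2a. The others lie at chr7:135716451-135716579 (minus) for Mki67, chr19:37376182-37376381 (plus) for Kif11, chr11:117849037-117849236 (plus) for Birc5 and chr6:66535021-66535220 (plus) for Mad2l1.

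A CHR match was present in 27 of the 34 members (79.4%), against 21.7% of the 27025 genes with a window of this length. CCAAT was present in 26 (76.5%, against 41.1%), and both in 24 (70.6%, against 9.65%). Of 36 CHR matches, with a site in overlapping windows of a gene counted once, the median position was 4 bases after the start, and 24 members had a match within 40 bases of it. The members without a CHR match in this window were Birc5, Ccnb1, Cenpe, Mad2l1, Mybl2, Nuf2 and Nusap1. The MYB letters AACGG were in 12 members (35.3%, against 19.6%), an E2F site (TTTCGCGC, TTTGGCGC or TTTCCCGC) in 1 (2.94%, against 2.12%), namely Cdk1, and the E-box CACGTG in 2 (5.88%, against 8.09%). Both strands were searched for each. In the members' windows 1 CHR match overlapped a CCAAT match, 1 overlapped an AACGG match, and 1 pair of CCAAT matches overlapped each other. A match is only a description of letters.

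**Figure D1:**
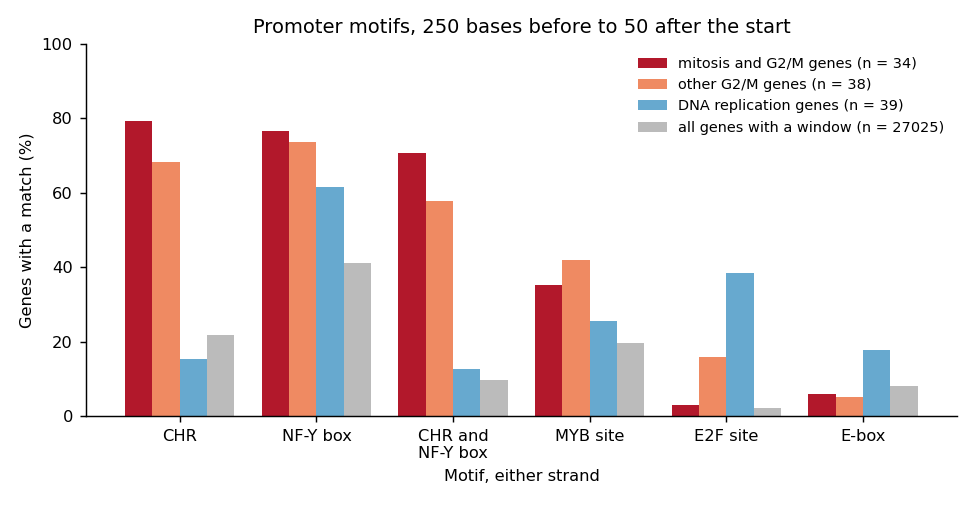
Share of genes (%, y axis) whose 300-base RefSeq window holds each motif (x axis), for members (n = 34), other G2/M genes (n = 38), DNA replication genes (n = 39) and all genes with a window (n = 27025). CHR was in 79.4% of members, 68.4% of other G2/M genes, 15.4% of DNA replication genes and 21.7% of all genes, while E2F sites were in 38.5% of DNA replication genes and 2.94% of members.

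Other G2/M genes held a CHR match in 26 of 38 (68.4%) and both CHR and CCAAT in 22 (57.9%). DNA replication genes held a CHR match in 6 of 39 (15.4%), CCAAT in 24 (61.5%) and an E2F site in 15 (38.5%). Subunits and regulators of the anaphase-promoting complex held a CHR match in 3 of 15 (20%). Differences between these shares were not tested.

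Libraries held 2685579 to 10047314 counts (median 4626666), so that 3 counts correspond to 0.29 to 1.02 CPM. The 13 plasma cell markers found summed to 36235 to 66870 CPM in Control and to 5337 to 17613 CPM in the lines. Most of the Control sum was Igj, the J chain gene (77% to 86% of it). Without Igj the other 12 markers summed to 6281 to 9828 CPM in Control and to 3994 to 9957 CPM in the lines, so the ranges overlapped. B cell markers summed to 548 to 827 CPM in Control and to 62.7 to 197 CPM in the lines. Control replicate 2 stood apart. It was the highest Control library for 39 of the 40 members, at a median of 2.21 times the mean of replicates 1 and 3. Its markers of neutrophils summed to 8233 CPM against 3036 and 3130 in replicates 1 and 3, those of granulocyte precursors to 1262 against 386 and 749, and those of the erythroid lineage to 1118 against 185 and 285. In the lines neutrophil markers ran from 3.68 to 1045 CPM and erythroid markers from 2.75 to 67.5 CPM. Monocyte and macrophage markers summed to 462 to 1473 CPM in Control. They summed to 505 to 1386 in VQ-D4, 670 to 1262 in t-VK12653 and 461 to 686 in VQ-D1. In VQ-D2 they were at 36.1 to 249 CPM and in VQ-D5 at 4.32 to 33.5. Endothelial and stromal markers reached 745 CPM in the liver library of VQ-D4 and 375 in VQ-D1 replicate 1, against 65.7 to 102 in Control. B precursor markers were at 231, 89.4 and 16.0 CPM in Control replicates 1 to 3. Hepatocyte markers were at 0 in Control and at 39.9 CPM in the liver library of VQ-D4. The part of these other cells in the members' levels was not tested, and in sorted bulk samples a larger share of dividing cells and more RNA per cell cannot be told apart.

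The module was lowest in Control and highest in VQ-D5. The 40 members summed to 1601, 3091 and 1624 CPM in the 3 Control libraries. In the VQ lines the sums were 8366, 7665, 7633 and 7953 in VQ-D5, 7543, 6015, 5842 and 5322 in VQ-D2, 4126, 6332, 5539.9 and 5270.1 in VQ-D1 and 2675, 3029, 4221 and 3669 in VQ-D4. In t-VK12653 they were 3193, 3243, 3946 and 3773. All libraries of VQ-D1, VQ-D2, VQ-D5 and t-VK12653 were above all 3 Control libraries, while VQ-D4 replicates 1 and 2, from bone marrow and liver, were below Control replicate 2 and above the other Control libraries.

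Group means of the sum were 2105 ± 853 CPM in Control (SD, n = 3), 7904 ± 340 in VQ-D5, 6181 ± 955 in VQ-D2, 5317 ± 913 in VQ-D1, 3398 ± 685 in VQ-D4 and 3539 ± 378 in t-VK12653 (n = 4 libraries each). In this order VQ-D4 and t-VK12653 lay within each other's spread, as did VQ-D1 and VQ-D2. Mki67 alone made up 31.8% (VQ-D5) to 54.4% (VQ-D1) of the sum in single libraries. Without it the means were 1151 ± 523 CPM in Control, 5256 ± 194 in VQ-D5, 3913 ± 543 in VQ-D2, 2469 ± 399 in VQ-D1, 1981 ± 478 in VQ-D4 and 1788 ± 210 in t-VK12653, so the order of VQ-D4 and t-VK12653 was exchanged. Giving each gene equal weight, the mean of log2(CPM + 1) over the members ran from 4.51 ± 0.63 in Control through 5.18 in t-VK12653, 5.35 in VQ-D4, 5.68 in VQ-D1 and 6.33 in VQ-D2 to 6.81 ± 0.04 in VQ-D5.

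**Figure D2:**
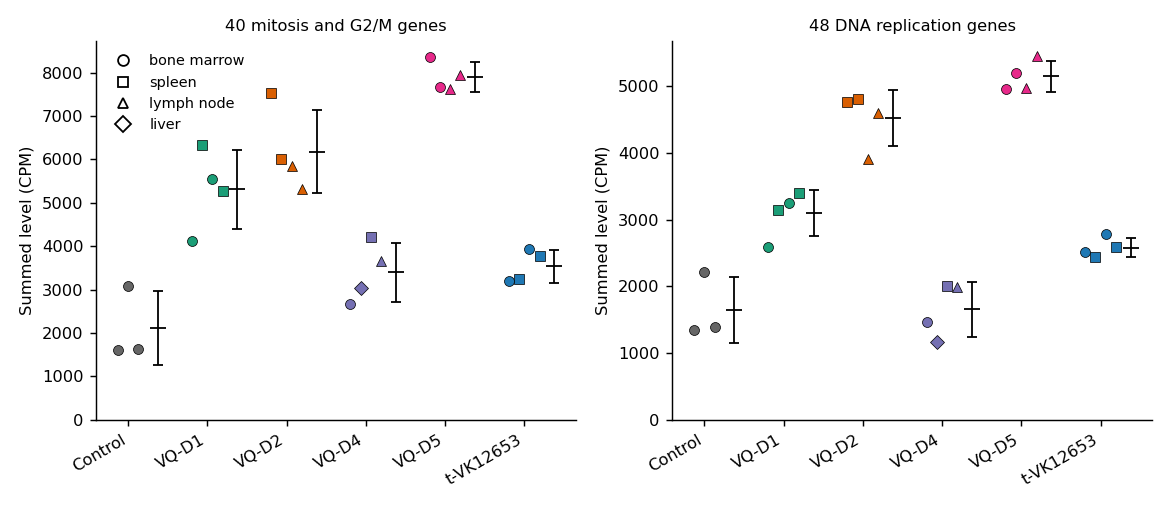
Summed CPM (y axis) of the 40 members (left) and of 48 DNA replication genes (right) in each library, by group (x axis), where points are libraries, the shape gives the tissue and bars are the mean ± SD. The 4 VQ-D5 libraries sit between 7633 and 8366 CPM for the members, above every other library, and VQ-D4 has a replication sum of 1657 ± 413 CPM beside 1649 ± 493 in Control.

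Ranked by group mean, VQ-D5 was the highest group for 37 of the 40 members. The exceptions were Mki67, highest in VQ-D1, and Cenpe and Ect2, highest in VQ-D2. VQ-D2 was the next highest group for 31 members. Control was the lowest group for 34, and the lowest was VQ-D1 for Cenpa, VQ-D2 for Cdc25b, VQ-D4 for Anln and t-VK12653 for Mad2l1, Ndc80 and Kif23. The ratio of the VQ-D5 mean to the Control mean was largest for Cdc20 (16.4), Mybl2 (10.7) and Ube2c (9.66). Scaled by length, Mki67 had the highest TPM of the members in every group, from 229.7 in Control to 691 in VQ-D1.

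**Figure D3:**
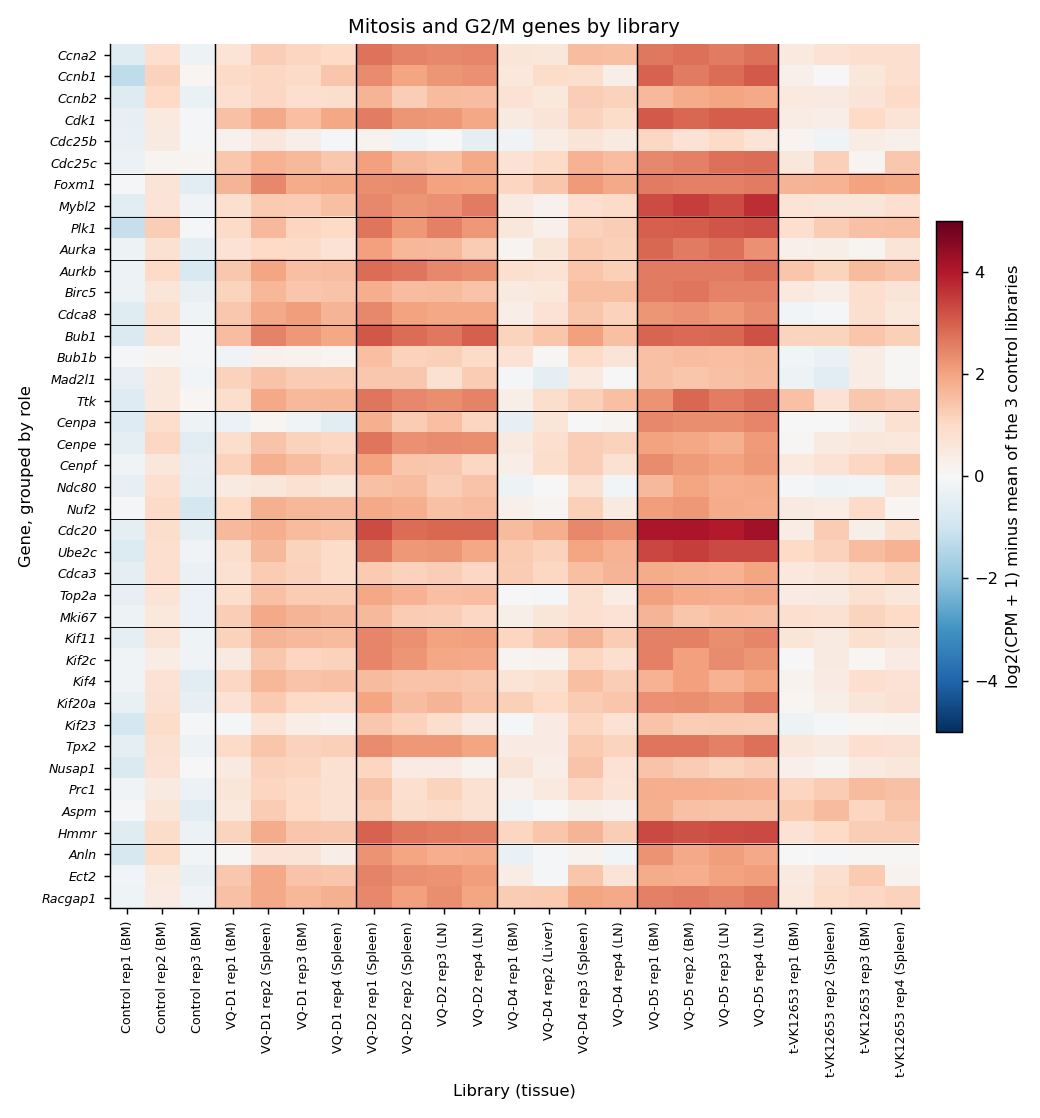
Difference of log2(CPM + 1) from the mean of the 3 Control libraries (colour, limited to ±5) for the 40 members (rows, grouped by role) in 23 libraries (columns, with tissue). VQ-D5 is the highest group for 37 members, and Control replicate 2 is above the other Control libraries for 39.

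Each line was compared with the same 3 Control libraries in 1 edgeR fit of all 23 libraries with terms for group and tissue, in which 12867 genes were tested, the 40 members among them. The liver library of VQ-D4 was fitted exactly by its own tissue term and so did not inform these values. At an adjusted p under 0.05 all 40 members were higher in VQ-D5 (background: 31.2% of all genes tested were higher), 37 in VQ-D2 (29.6%), 31 in VQ-D1 (29.7%), 20 in VQ-D4 (27.5%) and 12 in t-VK12653 (28.8%). No member was lower in any of the 5, where 32.5%, 27.8%, 29.7%, 26.9% and 28.1% of all genes were. The members' median log2 fold change was 2.26 in VQ-D5, 1.72 in VQ-D2, 1.02 in VQ-D1, 0.76 in VQ-D4 and 0.44 in t-VK12653, and that of all genes tested lay between -0.04 and 0.02. The t-VK12653 share of members, 12 of 40, was near its background.

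Without Control replicate 2 the counts were 40 in VQ-D5, 39 in VQ-D2, 36 in VQ-D1, 34 in VQ-D4 and 27 in t-VK12653. The VQ-D4 and t-VK12653 counts therefore moved by more than 1.5 times with that library. The share of all genes called in that fit is not given, so these counts cannot be set against the shares above. Every library of the line was above every Control library for 40 members in VQ-D5 (32.7% of all genes), 37 in VQ-D2 (33.2%), 24 in VQ-D1 (31%), 10 in VQ-D4 (26.4%) and 9 in t-VK12653 (28.5%). No member lay below Control in every library of a line, where 34%, 32.6%, 30%, 26.6% and 27.7% of all genes did in the same order.

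**Figure D4:**
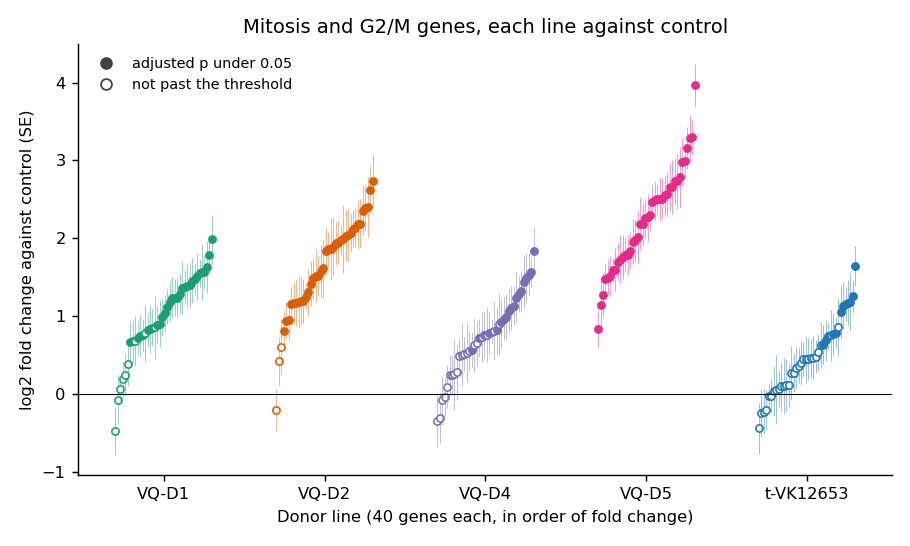
Log2 fold change against Control (y axis, bars ± SE) of the 40 members (points, in order of size) in each of the 5 lines (x axis), where filled points have an edgeR adjusted p under 0.05. All 40 points are filled in VQ-D5 and 12 in t-VK12653, and Cdc20 reaches 3.96 ± 0.28 in VQ-D5.

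For the genotype, counts of each VQ line were summed and the 4 line sums compared with the 3 Control libraries. In this edgeR fit 23 of the 40 members were higher and 0 lower at an adjusted p under 0.05, where 13.7% and 9.27% of 13870 genes tested were, and the members' median log2 fold change was 1.82 against 0.19 for all genes. The 3 largest were Cdc20 (3.08 ± 0.77, adjusted p = 0.028), the checkpoint kinase Bub1 (2.70 ± 0.59, adjusted p = 0.018) and the hyaluronan and microtubule binding protein Hmmr (2.45 ± 0.66, adjusted p = 0.036). The 3 smallest, which did not pass, were Cdc25b (0.46 ± 0.31), Kif23 (0.80 ± 0.48) and Nusap1 (0.93 ± 0.37). This count depended on the Control libraries: it was 1 without replicate 1, 12 without replicate 2 and 2 without replicate 3. For Cdc20 the value was 2.85 (edgeR adjusted p = 0.11), 3.68 (edgeR adjusted p = 0.055) and 2.85 (edgeR adjusted p = 0.11) in turn. The share of all genes called in these fits is not given, so a loss of calls among all genes cannot be told apart from one among the members. All 16 VQ libraries were above all 3 Control libraries for 8 members (11.8% of all genes): Cdc25c, Foxm1, Bub1, Cdc20, Ube2c, Kif11, Hmmr and Racgap1.

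The cyclins, Cdk1 and the CDC25 phosphatases drive entry into mitosis. Of these 6 genes, 6 were higher than Control in VQ-D5, 5 in VQ-D2, 4 each in VQ-D1 and VQ-D4 and 0 in t-VK12653. Cdk1 (chr10:69335146-69352912 in GRCm38.p6), the mitotic kinase itself, was at 12.00, 23.2 and 14.98 CPM in Control. It was at 142, 123, 139 and 139 in VQ-D5, 98.9, 78.8, 75.4 and 64.7 in VQ-D2, 45.7, 63.4, 48.1 and 63.97 in VQ-D1, 22.5, 25.5, 37.3 and 31.7 in VQ-D4 and 20.9, 20.7, 33.6 and 26.6 in t-VK12653. VQ-D1, VQ-D2 and VQ-D5 stood above all Control libraries, whereas VQ-D4 and t-VK12653 overlapped Control replicate 2. Cdk1 had a log2 fold change against Control (± SE) of 2.99 ± 0.22 in VQ-D5, 2.06 ± 0.24 in VQ-D2, 1.57 ± 0.22 in VQ-D1, 0.71 ± 0.24 in VQ-D4 and 0.44 ± 0.23 in t-VK12653, with edgeR adjusted p = 1.9e-10, 3.4e-07, 3.3e-06, 0.017 and 0.11 in the same order. Without Control replicate 2 the t-VK12653 value was 0.70 (edgeR adjusted p = 0.017) and without t-VK12653 replicate 2 it was 0.56 (edgeR adjusted p = 0.035). The VQ-D4 value was 0.56 (edgeR adjusted p = 0.073) without Control replicate 1, 0.67 (edgeR adjusted p = 0.055) without Control replicate 3 and 0.63 (edgeR adjusted p = 0.056) without VQ-D4 replicate 3. In bone marrow libraries alone the VQ-D4 value was 0.45 (edgeR adjusted p = 0.29).

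Ccnb1 (chr13:100778739-100786486), which encodes cyclin B1, had the lowest single count of the module, 2 reads in Control replicate 1. Ccnb1 has near-identical copies in the mouse genome, so its counts are uncertain where the counting could split reads. It was at 0.648, 7.84 and 3.15 CPM in Control, 29.2, 22.95, 26.1 and 32.1 in VQ-D5, 18.9, 14.3, 17.1 and 17.9 in VQ-D2 and 6.66, 7.08, 6.67 and 9.20 in VQ-D1. In VQ-D4 it was at 4.66, 6.50, 6.16 and 3.84 and in t-VK12653 at 3.65, 3.01, 4.75 and 6.03. VQ-D2 and VQ-D5 were above every other library, and the other 3 lines lay within or close to the Control range. Ccnb1 had a log2 fold change against Control (± SE) of 2.78 ± 0.39 in VQ-D5, 1.99 ± 0.43 in VQ-D2, 0.85 ± 0.41 in VQ-D1, 0.25 ± 0.45 in VQ-D4 and 0.05 ± 0.44 in t-VK12653, with edgeR adjusted p = 2.1e-06, 0.00051, 0.078, 0.66 and 0.94 in the same order. Leaving out Control replicate 2, it was 1.75 (edgeR adjusted p = 0.0013) in VQ-D1 and 1.14 (edgeR adjusted p = 0.042) in VQ-D4, and with the recipient block it was 1.34 (limma adjusted p = 0.03) in VQ-D1.

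Cdc25b, a phosphatase that starts the activation of Cdk1 at the centrosome, was the least changed of the cell cycle drivers. Its values were 22.4, 40.2 and 26.8 CPM in Control, 59.7, 47.97, 57.8 and 46.9 in VQ-D5, 32.5, 24.8, 28.9 and 20.9 in VQ-D2, 33.8, 43.3, 35.9 and 27.9 in VQ-D1, 25.7, 37.6, 46.1 and 39.3 in VQ-D4 and 31.6, 25.8, 37.3 and 35.1 in t-VK12653. VQ-D5 alone of the 5 lines stood clear of the Control range. Cdc25b had a log2 fold change against Control (± SE) of 0.83 ± 0.24 in VQ-D5, -0.21 ± 0.27 in VQ-D2, 0.19 ± 0.23 in VQ-D1, 0.24 ± 0.26 in VQ-D4 and 0.06 ± 0.24 in t-VK12653, with edgeR adjusted p = 0.0045, 0.53, 0.5, 0.44 and 0.84 in the same order. Its paralog Cdc25c was higher in every VQ line, at 20.1 to 26.9 (VQ-D5), 10.5 to 15.7 (VQ-D2), 9.13 to 12.2 (VQ-D1) and 5.67 to 12.3 (VQ-D4) CPM against 2.27 to 3.42 in Control. Ccna2 (cyclin A2) reached 235 to 291 CPM in VQ-D2 and 265 to 300.0 in VQ-D5 from 28.5 to 78.8 in Control, and Ccnb2 (cyclin B2) 56.1 to 71.1 CPM in VQ-D5 from 10.7 to 35.8.

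Foxm1 and Mybl2 encode the transcription factors that act on this gene class. Foxm1 (chr6:128362994-128375886) was at 22.05, 37.2 and 15.2 CPM in Control, 147, 138, 137 and 145 in VQ-D5, 122, 125, 97.2 and 95.1 in VQ-D2 and 78.5, 127, 86.95 and 90.5 in VQ-D1. It was at 49.5, 62.99, 104 and 89.2 in VQ-D4 and 77.2, 79.7, 97.02 and 90.8 in t-VK12653. All 20 line libraries exceeded all 3 Control libraries. Foxm1 had a log2 fold change against Control (± SE) of 2.49 ± 0.25 in VQ-D5, 1.93 ± 0.28 in VQ-D2, 1.78 ± 0.25 in VQ-D1, 1.53 ± 0.27 in VQ-D4 and 1.64 ± 0.25 in t-VK12653, with edgeR adjusted p = 8.9e-08, 9.9e-06, 7.3e-06, 0.00011 and 1.9e-05 in the same order. It had the largest fold change of the members in t-VK12653, the next largest in VQ-D1 and the third largest in VQ-D4.

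Mybl2 was at 9.40, 23.2 and 12.3 CPM in Control, 142, 165, 141 and 194 in VQ-D5, 77.9, 67.8, 72.7 and 89.5 in VQ-D2 and 25.4, 35.9, 34.97 and 41.4 in VQ-D1. It was at 19.4, 16.6, 25.95 and 28.5 in VQ-D4 and 22.8, 21.8, 22.1 and 25.5 in t-VK12653. VQ-D1, VQ-D2 and VQ-D5 did not overlap Control or each other, and VQ-D4 and t-VK12653 lay around Control replicate 2. Mybl2 had a log2 fold change against Control (± SE) of 3.30 ± 0.23 in VQ-D5, 2.14 ± 0.25 in VQ-D2, 1.12 ± 0.23 in VQ-D1, 0.55 ± 0.25 in VQ-D4 and 0.53 ± 0.24 in t-VK12653, with edgeR adjusted p = 6.1e-11, 3.1e-07, 0.00026, 0.071 and 0.061 in the same order. By group mean Foxm1 and Mybl2 ordered the lines alike, with t-VK12653 between VQ-D1 and VQ-D4. The means of VQ-D1, t-VK12653 and VQ-D4 were 95.7, 86.2 and 76.5 CPM for Foxm1. For Mybl2 they were 34.4, 23.04 and 22.6 CPM, so t-VK12653 and VQ-D4 were close. Without Control replicate 2 the Mybl2 value was 0.96 (edgeR adjusted p = 0.0014) in VQ-D4 and 0.94 (edgeR adjusted p = 0.0011) in t-VK12653, and without VQ-D1 replicate 1 it was 0.56 (edgeR adjusted p = 0.045) in t-VK12653.

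Plk1 and Aurka encode kinases of the centrosome and spindle, and both passed the test in VQ-D2 and VQ-D5 and not in the other 3 lines. Plk1 (chr7:122159435-122169884) was at 4.22, 26.3 and 9.72 CPM in Control, 89.4, 92.04, 101 and 108 in VQ-D5, 71.9, 50.4, 65.2 and 51.1 in VQ-D2, 21.5, 34.8, 23.5 and 22.2 in VQ-D1, 15.9, 12.7, 24.7 and 26.2 in VQ-D4 and 19.8, 26.7, 30.5 and 32.1 in t-VK12653. Control replicate 2 lay within or above the values of VQ-D1, VQ-D4 and t-VK12653, while VQ-D2 and VQ-D5 were above it. Plk1 had a log2 fold change against Control (± SE) of 2.74 ± 0.36 in VQ-D5, 1.86 ± 0.40 in VQ-D2, 0.78 ± 0.37 in VQ-D1, 0.50 ± 0.40 in VQ-D4 and 0.86 ± 0.38 in t-VK12653, with edgeR adjusted p = 3.2e-06, 0.00065, 0.079, 0.3 and 0.059 in the same order. When Control replicate 2 was left out it was 1.63 (edgeR adjusted p = 0.0001) in VQ-D1, 1.35 (edgeR adjusted p = 0.0013) in VQ-D4 and 1.71 (edgeR adjusted p = 7.5e-05) in t-VK12653. With the recipient as a block in limma, Plk1 was 1.14 (limma adjusted p = 0.016) in VQ-D1 and 1.19 (limma adjusted p = 0.016) in t-VK12653. Aurka was at 7.62 to 19.8 CPM in Control, 28.3 to 49.98 in VQ-D2 and 57.7 to 87.9 in VQ-D5.

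Aurkb, Birc5 and Cdca8 encode the kinase, survivin and borealin of the chromosomal passenger complex, which corrects chromosome attachment. All 3 were higher in VQ-D1, VQ-D2 and VQ-D5, 2 in VQ-D4 and 1 in t-VK12653. Aurkb (chr11:69045624-69051664) was at 9.73, 24.2 and 6.57 CPM in Control, 76.4, 75.7, 75.6 and 85.4 in VQ-D5, 87.3, 79.5, 66.1 and 61.9 in VQ-D2 and 31.6, 48.6, 34.9 and 36.2 in VQ-D1. It was at 21.2, 20.1, 31.8 and 27.8 in VQ-D4 and 32.2, 26.3, 36.6 and 33.2 in t-VK12653. VQ-D4 overlapped Control replicate 2, and the other 4 lines did not overlap Control. Aurkb had a log2 fold change against Control (± SE) of 2.56 ± 0.29 in VQ-D5, 2.35 ± 0.32 in VQ-D2, 1.40 ± 0.29 in VQ-D1, 0.92 ± 0.32 in VQ-D4 and 1.17 ± 0.29 in t-VK12653, with edgeR adjusted p = 2.5e-07, 3.4e-06, 0.00038, 0.019 and 0.0022 in the same order. The VQ-D4 value was 0.78 (edgeR adjusted p = 0.072) without Control replicate 1, 0.59 (edgeR adjusted p = 0.096) without Control replicate 3 and 0.85 (edgeR adjusted p = 0.052) without VQ-D4 replicate 3, and in bone marrow alone it was 0.69 (edgeR adjusted p = 0.3).

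Birc5 was at 19.8, 36.2 and 18.1 CPM in Control, 147, 156, 135 and 136 in VQ-D5, 85.04, 69.7, 71.8 and 64.5 in VQ-D2 and 52.3, 77.3, 62.5 and 64.5 in VQ-D1. It was at 32.5, 34.5, 69.1 and 69.1 in VQ-D4 and 33.8, 29.7, 43.4 and 37.6 in t-VK12653. Within VQ-D4 the bone marrow and liver libraries were below Control replicate 2 and the spleen and lymph node libraries above it. Birc5 had a log2 fold change against Control (± SE) of 2.51 ± 0.26 in VQ-D5, 1.42 ± 0.29 in VQ-D2, 1.28 ± 0.26 in VQ-D1, 1.07 ± 0.29 in VQ-D4 and 0.45 ± 0.27 in t-VK12653, with edgeR adjusted p = 1.1e-07, 0.00039, 0.00035, 0.004 and 0.16 in the same order. The t-VK12653 value was 0.79 (edgeR adjusted p = 0.021) without Control replicate 2 and 0.52 (edgeR adjusted p = 0.041) without VQ-D4 replicate 1. In VQ-D4 it was 0.42 (edgeR adjusted p = 0.32) in bone marrow libraries alone. Cdca8 ran from 12.00 to 33.4 CPM in Control to 73.5 to 102 in VQ-D2 and 88.6 to 99.3 in VQ-D5, and in t-VK12653 it was at 16.8 to 33.2.

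Bub1, Bub1b, Mad2l1 and Ttk encode the spindle checkpoint, which holds back anaphase until every chromosome is attached. Mad2l1, the Mad2 subunit that binds Cdc20, was at 8.75, 17.4 and 10.8 CPM in Control, 34.02, 32.4, 34.3 and 35.9 in VQ-D5, 31.6, 31.7, 20.6 and 29.6 in VQ-D2 and 27.4, 33.9, 29.9 and 29.97 in VQ-D1. It was at 11.3, 8.51, 17.2 and 12.2 in VQ-D4 and 9.89, 7.71, 15.6 and 12.3 in t-VK12653. VQ-D1, VQ-D2 and VQ-D5 were above Control, with every VQ-D5 library above every VQ-D2 library, and VQ-D4 and t-VK12653 overlapped Control, with Control replicate 2 above all of their libraries. Mad2l1 had a log2 fold change against Control (± SE) of 1.52 ± 0.25 in VQ-D5, 1.17 ± 0.27 in VQ-D2, 1.24 ± 0.24 in VQ-D1, 0.09 ± 0.27 in VQ-D4 and -0.21 ± 0.26 in t-VK12653, with edgeR adjusted p = 1.5e-05, 0.00089, 0.00015, 0.8 and 0.51 in the same order. Bub1 was higher in VQ-D5 (2.98 ± 0.31), VQ-D2 (2.73 ± 0.34), VQ-D1 (1.98 ± 0.31), VQ-D4 (1.44 ± 0.34) and t-VK12653 (1.05 ± 0.33), with edgeR adjusted p = 3.1e-08, 6.0e-07, 1.3e-05, 0.0012 and 0.0099. It was the largest member change in VQ-D1 and VQ-D2.

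Bub1b, which encodes BubR1, had a pattern of its own: it was at 75.9 to 88.00 CPM in Control, 71.6 to 93.1 in VQ-D1 and 63.00 to 103 in t-VK12653, which overlapped. It was at 82.9 to 156 in VQ-D4, 157 to 233 in VQ-D2 and 224 to 244 in VQ-D5. It did not pass the test in VQ-D1 (0.05 ± 0.15, edgeR adjusted p = 0.78) and was the only member higher in VQ-D4 than in VQ-D1 (0.74 ± 0.14, edgeR adjusted p = 0.00021). Ttk, the Mps1 kinase, passed the test in every line but VQ-D4, rising from 2.59 to 7.16 CPM in Control to 26.96 to 34.3 in VQ-D2.

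Of the centromere and kinetochore genes, Cenpa (the centromeric histone H3), Cenpe (a kinesin), Cenpf, Ndc80 and Nuf2, all 5 were higher in VQ-D2 and VQ-D5, 3 in VQ-D1, 0 in VQ-D4 and 1, Cenpf, in t-VK12653. Cenpa separated the lines most. It was at 9.73, 29.7 and 13.1 CPM in Control, 12.6, 16.97, 13.7 and 10.6 in VQ-D1 and 88.4, 82.4, 83.2 and 89.4 in VQ-D5. VQ-D1 lay inside the Control range and VQ-D5 far above it, and the difference of VQ-D5 from VQ-D1 was 2.75 ± 0.27 (edgeR adjusted p = 3.5e-08). Cenpe reached its highest level in VQ-D2, at 296, 225, 242 and 234 CPM, above every VQ-D5 library (161 to 203), although this difference did not pass the test (-0.32 ± 0.27 for VQ-D5 against VQ-D2, adjusted p = 0.37).

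Cdc20 and Ube2c encode the activator and the ubiquitin-conjugating enzyme of the anaphase-promoting complex, and Cdca3 a trigger of mitotic entry. All 3 were higher in each VQ line. Cdc20 was at 8.11, 21.8 and 8.14 CPM in Control, 206, 206, 194 and 228 in VQ-D5, 118, 85.5, 88.6 and 89.1 in VQ-D2 and 36.8, 43.00, 35.8 and 34.4 in VQ-D1. It was at 36.1, 42.2, 63.9 and 58.2 in VQ-D4 and 15.05, 28.96, 14.2 and 20.6 in t-VK12653. All 16 VQ libraries were above all Control and all t-VK12653 libraries, VQ-D5 was far above the rest, and t-VK12653 overlapped Control replicate 2. Cdc20 had a log2 fold change against Control (± SE) of 3.96 ± 0.28 in VQ-D5, 2.62 ± 0.31 in VQ-D2, 1.38 ± 0.28 in VQ-D1, 1.84 ± 0.30 in VQ-D4 and 0.44 ± 0.30 in t-VK12653, with edgeR adjusted p = 4.3e-10, 7.1e-07, 0.00033, 4.2e-05 and 0.22 in the same order. The t-VK12653 value without Control replicate 2 was 1.03 (edgeR adjusted p = 0.0026).

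Ube2c was at 10.7, 32.7 and 15.5 CPM in Control and at 189, 205, 181 and 184 in VQ-D5. In t-VK12653 it was at 36.1, 41.00, 53.9 and 61.1, above all Control libraries. Its log2 fold change was 3.29 ± 0.30 in VQ-D5 (edgeR adjusted p = 3.0e-08) and 1.13 ± 0.30 in t-VK12653 (adjusted p = 0.004). Cdca3 was the member for which VQ-D4, at 49.4 to 80.3 CPM, was the next highest group after VQ-D5 (82.3 to 95.3), as it also was for Cdc25b.

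Top2a encodes the topoisomerase that untangles sister chromatids, and Mki67 the Ki-67 protein that coats mitotic chromosomes. Top2a was at 127, 273 and 136 CPM in Control, 696, 603, 586 and 624 in VQ-D5, 644, 567, 484 and 489.9 in VQ-D2 and 307, 470.2, 410.0 and 411 in VQ-D1. It was at 164, 163, 290.0 and 217 in VQ-D4 and 226, 228, 287 and 249 in t-VK12653. VQ-D1, VQ-D2 and VQ-D5 were above all Control libraries, and VQ-D4 and t-VK12653 overlapped Control replicate 2. Top2a had a log2 fold change against Control (± SE) of 1.84 ± 0.24 in VQ-D5, 1.51 ± 0.26 in VQ-D2, 1.04 ± 0.23 in VQ-D1, 0.24 ± 0.25 in VQ-D4 and 0.36 ± 0.23 in t-VK12653, with edgeR adjusted p = 2.3e-06, 8.7e-05, 0.00083, 0.43 and 0.18 in the same order. Without Control replicate 2 it was 0.66 (edgeR adjusted p = 0.0052) in VQ-D4 and 0.77 (edgeR adjusted p = 0.00073) in t-VK12653.

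Mki67 did not follow the order of the other members. It was at 778, 1336 and 748 CPM in Control, 2961, 2434, 2642 and 2554 in VQ-D5, 2847, 2194, 2167 and 1862 in VQ-D2 and 2144, 3380.1, 3012 and 2857 in VQ-D1. It was at 1127, 1386, 1648 and 1506 in VQ-D4 and 1637, 1578, 1971 and 1819 in t-VK12653. VQ-D1 and VQ-D5 had the highest means and overlapped each other, and VQ-D2 overlapped both. VQ-D4 overlapped Control replicate 2, and t-VK12653 was above all Control libraries. Mki67 had a log2 fold change against Control (± SE) of 1.48 ± 0.21 in VQ-D5, 1.15 ± 0.23 in VQ-D2, 1.48 ± 0.20 in VQ-D1, 0.51 ± 0.22 in VQ-D4 and 0.79 ± 0.20 in t-VK12653, with edgeR adjusted p = 4.2e-06, 0.00028, 5.1e-06, 0.055 and 0.0022 in the same order. VQ-D5 and VQ-D1 differed by 0.00 ± 0.19 for Mki67, where 35 other members were higher in VQ-D5. The VQ-D4 value against Control was 0.82 (edgeR adjusted p = 0.0011) without Control replicate 2, 0.54 (edgeR adjusted p = 0.042) without VQ-D1 replicate 1 and 0.72 (edgeR adjusted p = 0.029) without VQ-D4 replicate 1.

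The spindle kinesins and microtubule proteins (Kif11, Kif2c, Kif4, Kif20a, Kif23, Tpx2, Nusap1, Prc1, Aspm and Hmmr) counted 10 of 10 higher in VQ-D5, 8 in VQ-D2, 9 in VQ-D1, 7 in VQ-D4 and 3 in t-VK12653. Kif11, the Eg5 motor that pushes spindle poles apart, was at 39.6, 89.4 and 47.8 CPM in Control and 84.7, 76.7, 97.4 and 86.9 in t-VK12653. In the VQ lines it was at 324, 325, 283 and 306 in VQ-D5, 306, 277, 227 and 230.0 in VQ-D2, 124, 182, 174 and 165 in VQ-D1 and 119, 145, 181 and 136 in VQ-D4. All 16 VQ libraries were above all Control and all t-VK12653 libraries. Hmmr reached 186 to 201 CPM in VQ-D5 from 12.3 to 37.5 in Control. Kif23, a motor of the central spindle, and Nusap1, a microtubule stabilizer, were among the 3 smallest changes in VQ-D2 and VQ-D5, at 1.15 ± 0.32 and 1.27 ± 0.28 in VQ-D5 (edgeR adjusted p = 0.0042 and 0.00064).

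Prc1, which bundles microtubules of the central spindle, and Aspm, which holds microtubules at spindle poles, were the members for which t-VK12653 was the next highest group after VQ-D5. Prc1 was at 30.8, 47.1 and 28.4 CPM in Control, 123, 123, 122 and 118 in VQ-D5, 95.6, 62.6, 75.6 and 58.5 in VQ-D2 and 53.3, 74.3, 67.8 and 58.8 in VQ-D1. It was at 40.4, 48.6, 71.7 and 55.97 in VQ-D4 and 74.6, 84.8, 106 and 96.8 in t-VK12653. All t-VK12653 libraries were above all VQ-D1, VQ-D4 and Control libraries, and all below VQ-D5. Aspm was at 56.4, 89.7 and 41.2 CPM in Control, 53.02, 59.1, 72.01 and 68.4 in VQ-D4, 208, 167, 160.5 and 159 in VQ-D5 and 147, 180.0, 124 and 155 in t-VK12653. The VQ-D5 and t-VK12653 values overlapped, and VQ-D4 lay within the Control range. Against Control in t-VK12653 the log2 fold change was 1.25 ± 0.21 for Prc1 and 1.15 ± 0.22 for Aspm (edgeR adjusted p = 4.1e-05 and 0.00021).

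Of the cytokinesis genes, Racgap1, a subunit of the centralspindlin complex, was higher in all 5 lines. It was at 26.3, 40.9 and 26.8 CPM in Control and 44.1, 59.1, 63.1 and 68.5 in t-VK12653. In the VQ lines it was at 174 to 197 in VQ-D5, 123 to 167 in VQ-D2, 86.1 to 117 in VQ-D1 and 74.7 to 125 in VQ-D4, and no VQ library overlapped Control or t-VK12653. Anln, a scaffold of the contractile ring, was higher in VQ-D2 and VQ-D5 and did not pass the test in the other 3 lines, with -0.32 ± 0.32 in VQ-D4 and -0.23 ± 0.29 in t-VK12653 (edgeR adjusted p = 0.41 and 0.52). Ect2, which activates RhoA at the cleavage furrow, was highest in VQ-D2 at 59.97 to 79.97 CPM, against 49.8 to 60.1 in VQ-D5 and 10.2 to 19.4 in Control.

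The mean of the 4 VQ lines was compared with t-VK12653, the line with Vκ*MYC but without the Nras allele, which is 1 donor. In edgeR's test 36 members were higher in VQ and 1 lower, against 29.6% and 31.6% of all genes tested, with a median log2 difference of 1.04 against 0.02 for all genes. The largest were Cdc20 (2.01 ± 0.20, adjusted p = 5.1e-08), Cdca8 (1.53 ± 0.25, adjusted p = 4.9e-05) and Ccnb1 (1.42 ± 0.29, adjusted p = 0.00023). The member that was lower was Aspm (-0.41 ± 0.15, adjusted p = 0.026). This count of 1 became 0 without Control replicate 1, VQ-D4 replicate 1, VQ-D2 replicate 2 or t-VK12653 replicates 1, 2 or 4. Prc1 (-0.24 ± 0.14), Cdc25b (0.20 ± 0.17) and Foxm1 (0.29 ± 0.17) did not pass the test. Foxm1 passed without t-VK12653 replicate 3, at 0.45 (edgeR adjusted p = 0.043), without VQ-D4 replicate 1, at 0.39 (edgeR adjusted p = 0.028), and with no filter, at 0.35 (edgeR adjusted p = 0.0047). In bone marrow libraries alone Ccnb1 was 1.17 (edgeR adjusted p = 0.13) and the counts were 12 higher and 0 lower, with fewer libraries fitted.

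This mean covers lines that stood in different places. All 4 libraries were above all 4 of t-VK12653 for 39 members in VQ-D5 (31.6% of all genes), 32 in VQ-D2 (31.3%), 19 in VQ-D1 (23.3%) and 4 in VQ-D4 (20.9%). The 4 of VQ-D4 were Cdc20, Kif11, Kif20a and Racgap1, of which Cdc20, Kif11 and Racgap1 also had all 16 VQ libraries above t-VK12653 (7.01% of all genes). These 3 of 40 members are near that share. For 0 members were all 16 below (9.18%). All 4 were below t-VK12653 for Prc1 in VQ-D1 (22.8%) and for Prc1 and Aspm in VQ-D4 (21%).

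The VQ lines share a genotype and still differed from each other across the module. A test of any difference among the 4 passed for all 40 members, where 80.6% of all genes passed. VQ-D5 was higher than VQ-D4 for 38 members (29.6% of all genes), than VQ-D1 for 35 (29.7%) and than VQ-D2 for 24 (20%), and lower for 0 in each, where 29.1%, 28.8% and 18.6% of all genes were lower. VQ-D2 was higher than VQ-D1 for 24 members (26.5%) and lower for 0 (24.8%). VQ-D4 was higher than VQ-D2 for 0 (27.6%) and lower for 28 (29.4%). All libraries of VQ-D5 were above all of VQ-D1 for 36 members (30% of all genes) and below for 0 (28.7%).

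VQ-D4 and VQ-D1 were the closest of the 6 pairs by number of members called. VQ-D4 was higher for 1 member, Bub1b (20.8% of all genes), and lower for 9 (20.4%): Aspm, Cdca8, Cdk1, Ect2, Mad2l1, Mki67, Mybl2, Nuf2 and Top2a. The 9 are 22.5% of the members, near the share of all genes. The largest were Mad2l1 (-1.15 ± 0.22, edgeR adjusted p = 0.00031), Mki67 (-0.96 ± 0.20, 0.00064) and Cdk1 (-0.86 ± 0.19, 0.0013). Without the bone marrow library of VQ-D4, 3 of the 40 were lower, and without Control replicate 2, Control replicate 1 or VQ-D1 replicate 2 the number higher was 4, 2 and 2.

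The widest member differences between lines were in VQ-D5. Against VQ-D4 they were Mybl2 (2.75 ± 0.20), Cenpa (2.61 ± 0.29) and Ccnb1 (2.53 ± 0.35), with edgeR adjusted p = 2.8e-10, 2.0e-07 and 1.9e-06. Against VQ-D1 they were Cenpa, Cdc20 (2.58 ± 0.22) and Ube2c (2.38 ± 0.25), and against VQ-D2 they were Cdc20 (1.34 ± 0.21), Ube2c (1.26 ± 0.24) and Mybl2 (1.16 ± 0.18). Cdc20 and Ube2c are thus among the largest in VQ-D5 against both VQ-D1 and VQ-D2. The widest between VQ-D2 and VQ-D1 were Cenpa (1.66 ± 0.27), Anln (1.58 ± 0.24) and Ccna2 (1.44 ± 0.24), with edgeR adjusted p = 3.0e-05, 1.6e-05 and 9.0e-05. Between VQ-D4 and VQ-D2 they were Anln (-2.15 ± 0.27), Ccnb1 (-1.74 ± 0.35) and Mybl2 (-1.59 ± 0.20).

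Across the 20 line libraries the members varied together to different degrees, described here by the correlation of each with the mean of the other 39 on the log2(CPM + 1) scale. The libraries share donors, depth and scaling, so no test is attached. Tpx2, which activates Aurora A on the spindle, followed the others most closely (r = 0.992). Cdc25b (r = 0.448), Aspm (0.494), Prc1 (0.614), Nusap1 (0.622) and Mki67 (0.670) followed them least. Members whose order over the lines departed from the rest were thus Aspm and Prc1, high in t-VK12653, and Mki67, high in VQ-D1. So did Cdc25b and Nusap1 depart, which were low in VQ-D2 relative to the median member. For both genes the VQ-D2 libraries overlapped those of every group but VQ-D5. After line means were removed, r was 0.916 for Prc1, 0.872 for Mki67, 0.870 for Nusap1, 0.713 for Cdc25b and 0.631 for Aspm. It was then lowest for Ccnb1 (0.262), Cenpa (0.465) and Cdc20 (0.529).

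Sites were compared in the same edgeR fit. At an adjusted p under 0.05, 0 of 40 members differed between spleen and bone marrow (0% of all genes), lymph node and bone marrow (0.0155%) or lymph node and spleen (0.0311%). DESeq2 also called 0 members in each. The members' median log2 difference was 0.24 for spleen against bone marrow, with 40 of 40 above 0, 0.07 for lymph node against bone marrow and -0.19 for lymph node against spleen. The share of all genes above 0 is not given here, so the 40 of 40 cannot be set against it. The largest for spleen were Cdc25c (0.55 ± 0.18, edgeR adjusted p = 0.5), Kif2c (0.52 ± 0.13, edgeR adjusted p = 0.27) and Kif23 (0.44 ± 0.22, edgeR adjusted p = 0.79), none past the threshold.

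Within lines the same direction was not seen everywhere. The counts here are of members only, without a share of all genes beside them. In VQ-D1 the spleen mean was above the bone marrow mean for 39 of 40 members (median log2 ratio 0.27). In t-VK12653 it was above for 23 (0.06). In VQ-D2 the lymph node mean was above the spleen mean for 3 (-0.25). In VQ-D5 lymph node was above bone marrow for 20 of 40 (0.0017). In VQ-D4, with 1 library per site, spleen was highest for 33 members, lymph node for 5 and liver for 2, and bone marrow was lowest for 25, liver for 14 and lymph node for 1.

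A list of 47 other G2/M genes, chosen by function, was read against the shares of all genes tested, which were 31.2% higher and 32.5% lower in VQ-D5, 29.6% and 27.8% in VQ-D2, 29.7% and 29.7% in VQ-D1, 27.5% and 26.9% in VQ-D4 and 28.8% and 28.1% in t-VK12653. Against Control, 44 were higher and 1 lower in VQ-D5, 42 and 1 in VQ-D2, 36 and 1 in VQ-D1, 23 and 3 in VQ-D4 and 18 and 3 in t-VK12653. The 18 are 38.3% of the list, the share nearest that of all genes, and the 44 are 93.6%. Cep55, which recruits the machinery of abscission, was at 4.86, 5.46 and 2.10 CPM in Control and at 35.5 to 48.1 in VQ-D5, 46.8 to 53.7 in VQ-D2, 27.1 to 46.8 in VQ-D1, 14.4 to 28.5 in VQ-D4 and 15.8 to 30.2 in t-VK12653, with no overlap between Control and any line. Cks1b, a Cdk-binding subunit, rose to 85.2 to 93.5 CPM in VQ-D5 from 6.57 to 10.7 (3.31 ± 0.20, edgeR adjusted p = 4.5e-12). Pttg1, which encodes securin, went the other way in VQ-D5, at 5.75, 4.82, 3.80 and 6.18 CPM against 16.2, 10.9 and 22.1 in Control (-1.77 ± 0.28, edgeR adjusted p = 1.3e-05). Fam64a had 0 counts in all 4 VQ-D4 libraries, where 3 counts are 0.378 to 0.973 CPM, and 2.59, 3.07 and 0.525 CPM in Control, so no fold is given.

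The 48 DNA replication genes, which act before G2, were set beside the same shares. Against Control, 44 were higher and 0 lower in VQ-D2, 43 and 0 in VQ-D5, 34 and 3 in VQ-D1, 18 and 3 in t-VK12653 and 11 and 9 in VQ-D4. The VQ-D4 counts, 22.9% and 18.8% of the list, were below the shares of all genes there, and the 18 of t-VK12653 were 37.5%. Their summed level was 1345, 2218 and 1385 CPM in Control, 1459.7, 1169, 2009 and 1992 in VQ-D4 and 2511, 2443, 2787 and 2589 in t-VK12653. VQ-D4 overlapped Control and all t-VK12653 libraries were above both. Against VQ-D1, VQ-D4 had 2 replication genes higher and 32 lower (4.17% and 66.7% of the list), with a median log2 difference of -0.76. Of the G2/M module 1 member was higher and 9 were lower (2.5% and 22.5%), where 20.8% and 20.4% of all genes were. In VQ-D4 the clamp loader subunit Rfc2 (-1.64 ± 0.19) and the histone mRNA binding protein Slbp (-1.49 ± 0.21) were lower than Control (edgeR adjusted p = 1.9e-07 and 4.2e-06). In VQ-D5 the helicase factor Gins2 was at 41.2, 39.02, 40.7 and 41.3 CPM against 4.86, 6.14 and 2.36 in Control (3.15 ± 0.25, edgeR adjusted p = 5.5e-10).

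The 16 subunits and regulators of the anaphase-promoting complex gave 11 higher and 1 lower in VQ-D5, 8 and 0 in VQ-D2, 4 and 2 in VQ-D1, 4 and 1 in VQ-D4 and 6 and 4 in t-VK12653. Shares of the list that were higher thus ran from 25% (VQ-D1 and VQ-D4) to 68.8% (VQ-D5), with 27.5% to 31.2% of all genes higher in the 5 comparisons. Fbxo5, the Emi1 inhibitor of the complex, was at 8.67 to 23.2 CPM in Control, 30.6 to 45.9 in VQ-D2 and 53.1 to 58.3 in VQ-D5, and at 4.49 to 10.4 in VQ-D4 and 5.16 to 9.84 in t-VK12653. It was higher in VQ-D2 (1.35 ± 0.33) and VQ-D5 (2.05 ± 0.29) and lower in VQ-D4 (-1.02 ± 0.35), with edgeR adjusted p = 0.0014, 2.7e-06 and 0.018. The scaffold subunit Anapc4 was highest in t-VK12653, at 219.7, 234, 203 and 225 CPM against 32.7, 34.1 and 46.2 in Control (2.61 ± 0.14, edgeR adjusted p = 1.5e-12).

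Of 22 regulators that bind G2/M or E2F promoters, 11 were higher and 4 lower in VQ-D5, 10 and 4 in VQ-D2, 9 and 4 in VQ-D1, 5 and 8 in VQ-D4 and 7 and 9 in t-VK12653. Shares ran from 22.7% to 50% higher and 18.2% to 40.9% lower, around those of all genes (27.5% to 31.2% and 26.9% to 32.5%). Rb1, the retinoblastoma protein gene, was at 125, 106 and 136 CPM in Control and 301, 283, 237 and 226 in VQ-D1. In t-VK12653 it was at 0.215, 0.940, 0.339 and 0.274 CPM, at or near the floor of 3 counts (0.564 to 1.02 CPM), so no fold is given (edgeR adjusted p = 1.8e-15). The other 3 VQ lines were at 99.4 to 183 CPM, around the Control level. Rbl2, the p130 subunit of DREAM, was lower in every line, at 35.4 to 77.4 CPM over the 20 line libraries against 116, 118 and 123 in Control.

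Tfdp1, the partner of the E2F factors, was at 20.4, 40.6 and 27.6 CPM in Control, 116, 115, 102 and 105 in VQ-D2 and 146, 145, 141 and 141 in VQ-D5. VQ-D2 and VQ-D5 did not overlap Control or any other line, with 29.6 to 39.7 in VQ-D1, 21.5 to 36.8 in VQ-D4 and 14.5 to 17.3 in t-VK12653. The E2F repressor E2f7 was also highest in VQ-D2 and VQ-D5, at 52.2 to 69.2 CPM in VQ-D2 and 48.7 to 54.7 in VQ-D5 against 3.89 to 11.9 in Control. Mybl1 (A-Myb), the paralog of Mybl2, was at 2.36 to 3.07 CPM in Control and 7.40 to 18.8 in VQ-D1 (2.36 ± 0.37, edgeR adjusted p = 1.1e-05).

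The 16 brakes on mitotic entry gave 6 higher and 7 lower in VQ-D5, 4 and 8 in VQ-D2, 4 and 6 in VQ-D1, 6 and 6 in VQ-D4 and 8 and 2 in t-VK12653. Between 25% and 50% of the list were higher and 12.5% to 50% lower, which also lay around the shares of all genes. Cdkn2c, the p18 inhibitor of Cdk4 and Cdk6, divided the lines. It was at 13.3, 17.7 and 8.93 CPM in Control, 29.98, 18.7, 28.5 and 24.9 in VQ-D4 and 27.7, 31.03, 35.3 and 49.6 in t-VK12653, and at 3.70, 0.988, 1.35 and 0.976 in VQ-D1, 0.298, 0.435, 0.582 and 0.431 in VQ-D2 and 0.479, 1.15, 0.655 and 0.583 in VQ-D5. VQ-D4 and t-VK12653, the lines with the lowest member sums, were above all Control libraries, and VQ-D1, VQ-D2 and VQ-D5 below them. The VQ-D2 libraries and most of VQ-D5 were at or below 3 counts, or close to it.

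Cdkn1a, the p21 inhibitor, was at 5.84, 3.75 and 1.58 CPM in Control, 19.9, 15.1, 33.9 and 22.96 in VQ-D5, 0.895, 0.869, 5.04 and 3.45 in VQ-D2, 57.01, 54.03, 72.9 and 57.4 in VQ-D1, 20.7, 26.9, 41.2 and 20.5 in VQ-D4 and 17.8, 21.6, 18.7 and 15.6 in t-VK12653. VQ-D2 overlapped Control, and the other 4 lines were above it. Gadd45a, a stress-induced inhibitor of Cdk1, was at 10.7, 30.7 and 9.20 CPM in Control and 23.9, 27.9, 59.4 and 30.4 in VQ-D4, and under 1.5 CPM in every VQ-D2, VQ-D5 and t-VK12653 library. Btg1, an antiproliferative gene, was at 61.6, 168 and 43.1 CPM in Control and at 0, 0.188, 0 and 1.10 in t-VK12653.

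**Figure D5:**
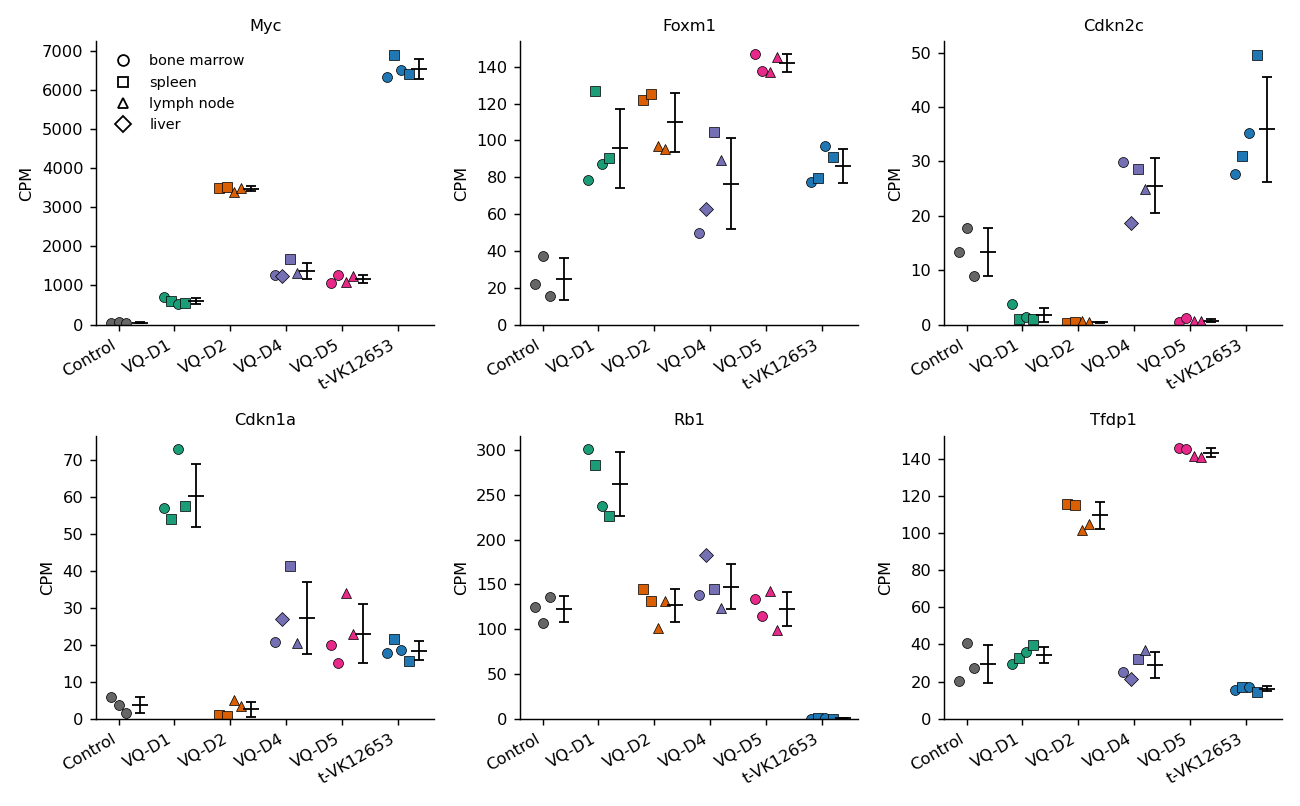
CPM (y axis) of Myc, Foxm1, Cdkn2c, Cdkn1a, Rb1 and Tfdp1 in each library (points, shape by tissue) by group (x axis), with bars for the mean ± SD. Myc is highest in t-VK12653, Rb1 is near 0 only there, and Cdkn2c is above Control in VQ-D4 and t-VK12653 and below it in VQ-D1, VQ-D2 and VQ-D5.

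The order of Myc over the groups was not that of the module. Its mean was 43.1 CPM in Control, 592 in VQ-D1, 1163 in VQ-D5, 1375 in VQ-D4, 3478 in VQ-D2 and 6542 in t-VK12653, so the line with the highest Myc count had the lowest mean log2 level of the members among the lines. These are reads counted for the mouse gene Myc. How far they include or miss those of the MYC transgene is not known here. Nras was at 32.3 CPM in Control, 42.3 in VQ-D1, 43.5 in t-VK12653, 51.1 in VQ-D4, 87.4 in VQ-D2 and 124.4 in VQ-D5, whose order ended with VQ-D2 and VQ-D5 as the module's did. These are 6 group values and were not tested as a relation.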

How the data were processed

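Total RNA of CD138+B220- cells from 23 libraries was analysed from the authors' deposited tables. Per the labels' protocols, a column kit for few cells and a stranded total RNA kit for very small inputs were used. The submitters' processing notes name the build GRCm38, also as mm10, and the tools STAR, featureCounts and DESeq2. Versions, strand setting and annotation were not given in the sources used here, so reads of overlapping or antisense genes cannot be told apart. Per the file headers the deposited columns are a count, FPKM and TPM for every gene symbol. The count column holds the authors' whole, unnormalized read counts and was used for every test. The deposited FPKM values, scaled by the authors to length and depth, were not used. The TPM values as deposited were used only to rank members within a group and to give the level of Mki67.

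Analyses used R 4.3.3 with edgeR 4.0.16 and limma 3.58.1, and DESeq2 1.42.0 as an alternative. Counts were tested with edgeR (glmQLFit, robust, and glmQLFTest) after TMM scaling, with Benjamini-Hochberg adjustment over all genes tested and low genes removed by filterByExpr (a count of at least 10 in enough libraries, a total of at least 15), with calls at an adjusted p under 0.05. All libraries were fitted with terms for group and tissue (12867 genes), and the VQ genotype on counts summed per line (13870 genes, no tissue term). Control is bone marrow only, so site and genotype cannot be told apart in the line sums. The SE is the log2 fold change divided by the square root of F. Scripts were tested on simulated counts. Libraries of a group differed by more than sampling noise (33 pairs, chi-square per degree of freedom 4.83 to 24). Alternatives were RLE scaling, no filter, DESeq2, removal of abundant non-coding RNA, a replicate block, a recipient block, no tissue term, bone marrow only, the mean of lines in the fit of all libraries, and leaving out each library.

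The members and all lists were chosen with earlier results of these data known. Values in every library were given for 12 members covering the roles, and per comparison for the 3 highest and 3 lowest fold changes. Other members were named where their order over the lines departed from the rest, and genes of other lists were among the 3 largest called changes of a comparison or were named for their level. Counting error only is covered by the floor of 3 counts.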

Additional observations from a re-analysis of the deposited data

Results flagged for a closer look

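In 8 of 205 sets of 4 libraries of a line (the 40 members and the summed level in 5 lines), 1 library lay apart from the other 3 by a gap that is large against the whole range. Chance gives about 1 in 20, which is 10.25 sets, so this number is not above it. The value given is the gap divided by the range.

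In VQ-D1, Ccnb1 was at 9.20 CPM in replicate 4 against 6.66 to 7.08 in the others (0.834). Plk1 was at 34.8 CPM in the spleen replicate 2 of VQ-D1 against 21.5 to 23.5 (0.849), and Ect2 at 53.2 CPM in the same library against 36.0 to 38.2 (0.876). In VQ-D2, Cdc20 was at 118 CPM in the spleen replicate 1 against 85.5 to 89.1 (0.890). In VQ-D5, Aurkb was at 85.4 CPM in the lymph node replicate 4 against 75.6 to 76.4 (0.915), Bub1 at 53.5 CPM in the same library against 41.8 to 43.6 (0.844), and Aspm at 208 CPM in the bone marrow replicate 1 against 159 to 167 (0.847). In t-VK12653, Ndc80 was at 20.3 CPM in the spleen replicate 4 against 12.0 to 12.9 (0.896). In each case the library apart was the highest of its line.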

How the results depend on the processing

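The alternatives gave 1000 values of 33 counts of called members, of which 964 were within 1.5 times of the count reported, 36 moved further and 0 reversed. The number of members higher in the VQ line sums than in Control was the least stable: 23 became 2 in bone marrow only, 38 with the mean of lines in the fit of all libraries, 30 with DESeq2, 17 with RLE scaling, and 1 to 24 on leaving out 1 library. Members higher in VQ-D4 than in Control became 6 in bone marrow only and 14 to 34 on leaving out 1 library. For t-VK12653 against Control they became 22 with no filter and 7 to 27 on leaving out 1 library, with 0 to 1 lower. For VQ against t-VK12653, bone marrow only gave 12 higher and 0 lower, and leaving out 1 library gave 0 to 1 lower. For VQ-D4 against VQ-D1, no filter gave 4 higher and 14 lower, no tissue term 14 lower, bone marrow only 1 lower, and leaving out 1 library 1 to 4 higher and 3 to 13 lower. VQ-D2 against VQ-D1 had 1 lower with no filter and 0 to 1 on leaving out 1 library, VQ-D4 against VQ-D2 had 1 higher with no tissue term and 0 to 1 on leaving out 1 library, and VQ-D5 against VQ-D2 had 1 lower with no filter. With no filter, 4 members were higher in spleen than in bone marrow and 1 was lower in lymph node than in spleen. Apart from fits on fewer libraries, the cause was not tested. Shares of all genes called under the alternatives are not given here.

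RLE scaling moved the median of all genes by -0.115 (log2) in the line sums, where 40 of 40 members were above 0 under both scalings. Replicate numbers were not taken to pair libraries, since not every same-numbered pair had a correlation of deviations over 0.1: of 55 pairs, 5 did (-0.225 to 0.162, median 0.0189). As a hint from the data, 12 of 23 libraries had their best match in another group under the same number. No block can be made on line sums. In the fit of all libraries the mean of the VQ lines had 38 members higher than Control without the replicate block and 37 with it. With the block the members higher were 40 in VQ-D5, 37 in VQ-D2, 29 in VQ-D1, 23 in VQ-D4 and 13 in t-VK12653.

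Of the members described per library, Mybl2 passed with the block in VQ-D4, at 0.68 (edgeR adjusted p = 0.019), and in t-VK12653, at 0.58 (edgeR adjusted p = 0.028). With no filter, Ccnb1 and Plk1 in VQ-D1, Mybl2, Plk1 and Mki67 in VQ-D4 and Cdk1, Mybl2, Plk1, Birc5, Cdc20 and Top2a in t-VK12653 also passed against Control. With no tissue term, so did Ccnb1 and Plk1 in VQ-D1, Mybl2 and Mki67 in VQ-D4 and Cdk1, Mybl2 and Plk1 in t-VK12653.

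The fewest reads were those of Cdc25c (7 to 231 per library) and Ccnb1 (2 to 275). Liver has 1 library and was not compared, and VQ-D2 has no bone marrow library.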
